A study of Mus musculus with 8 samples.

Results

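Proliferating cells copy their DNA in S phase and divide in mitosis, driven by cyclins and the cyclin-dependent kinases that they activate. In the cortex most neurons are born before birth, from radial glia that carry Pax6 and Sox2 and from intermediate progenitors that carry Eomes. Cells that still divide in the early postnatal cortex are mostly glial precursors. The genes described here are 35 cell cycle and neural progenitor genes, chosen by name: 10 cyclins and cyclin-dependent kinases, 10 genes of DNA replication and nucleotide supply, 11 genes of mitosis, and 4 regulators of progenitor cells.

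The genes were measured in cortex from 4 Nova2 knockout (Nova2 KO) and 4 wild type mice, all CD1 and all taken at postnatal day 10, each on an array of its own. Nova2 binds RNA in neurons and steers which exons are spliced into their messages. The labels do not say which part of Nova2 was deleted or whether in all cells. The Affymetrix exon array reads each gene through several probe sets, and each gene value was taken per array as the median log2 signal of the probe sets kept for that gene. The comparison asks whether the loss of Nova2 changes these transcripts at this age.

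Of the 35 genes, 20 had probe sets that name them alone, and all 20 were measured at the gene level, out of 11992 genes in all. The other 15 were Ccnb1, Cdk1 and Cdk2 among the cyclins and kinases, Mcm2, Mcm3, Rrm2 and Tyms among the replication genes, Mki67, Birc5, Aurka, Aurkb, Bub1, Bub1b and Cenpe among the mitosis genes, and Pax6. They have no gene value here, so that mitosis is represented by 4 of its 11 genes. The 20 measured genes carried 410 probe sets, of which 345 passed the filter on dim probe sets.

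Array medians over all 391597 probe sets ran from 7.02 to 7.37 log2, and 0.991% to 3.34% of the values of an array lay at the floor of the scale. The wild type array numbered 4 (3.34%) and the Nova2 KO array numbered 4 (2.20%) had the highest shares at the floor. The targeted gene was looked at as a check of the labels, though which of its 16 kept probe sets lie in the deleted stretch is not known here. Nova2 probe set 5294108 read 6.28, 7.17, 7.26 and 6.73 log2 on Nova2 KO arrays 1 to 4, against 8.87, 8.65, 8.53 and 8.66 log2 on wild type arrays 1 to 4. The groups did not overlap at that probe set, which had the lowest p of the 16. The next, 4414499, was separate in the other direction (8.37 ± 0.095 log2 in Nova2 KO, against 7.67 ± 0.17 log2 in wild type, SD, n = 4 each). Of the 16, 6 were lower and 10 higher in Nova2 KO, and the gene value of Nova2 differed by -0.016 log2 (SE 0.11), so that the check of the labels rests on 1 probe set. Neither probe set passed over all probe sets in limma (adjusted p = 0.0786 and 0.321).

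None of the 20 genes passed the threshold of an adjusted p of 0.05 in limma, where 25 of all 11992 genes passed, a share of 0.208% (11 higher in Nova2 KO, 0.0917%, and 14 lower, 0.117%). At an unadjusted p under 0.05 there were 2 of the 20, Pcna and Ezh2, both higher in Nova2 KO. That is 10%, near the 11.6% of all genes tested. The difference was above 0 for 15 of the 20 and below 0 for 5, with a median of 0.065 log2 and a range of -0.17 to 0.66 log2. Over all genes tested, 55.4% lay above 0 and the median was 0.022 log2. In whole cortex, fewer cells of a type and less RNA per cell cannot be told apart.

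The size of the differences in array signal was bounded for most of the genes. The 95% confidence interval lay within 0.5 log2 on either side of 0 for 18 of the 20 genes, the exceptions being Pcna and Ccna2. It lay within 1 log2 for 19, Pcna being the exception. Of all 11992 genes tested, the interval lay within 0.5 log2 for 9598 and within 1 log2 for 11940. For 19 of the 20 the difference fell inside the central 95% of all genes, which ran from -0.30 to 0.37 log2, and Pcna lay above it. A p above the threshold does not show that the groups were alike, and the intervals give the range of differences in array signal that remain possible.

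**Figure D1:**
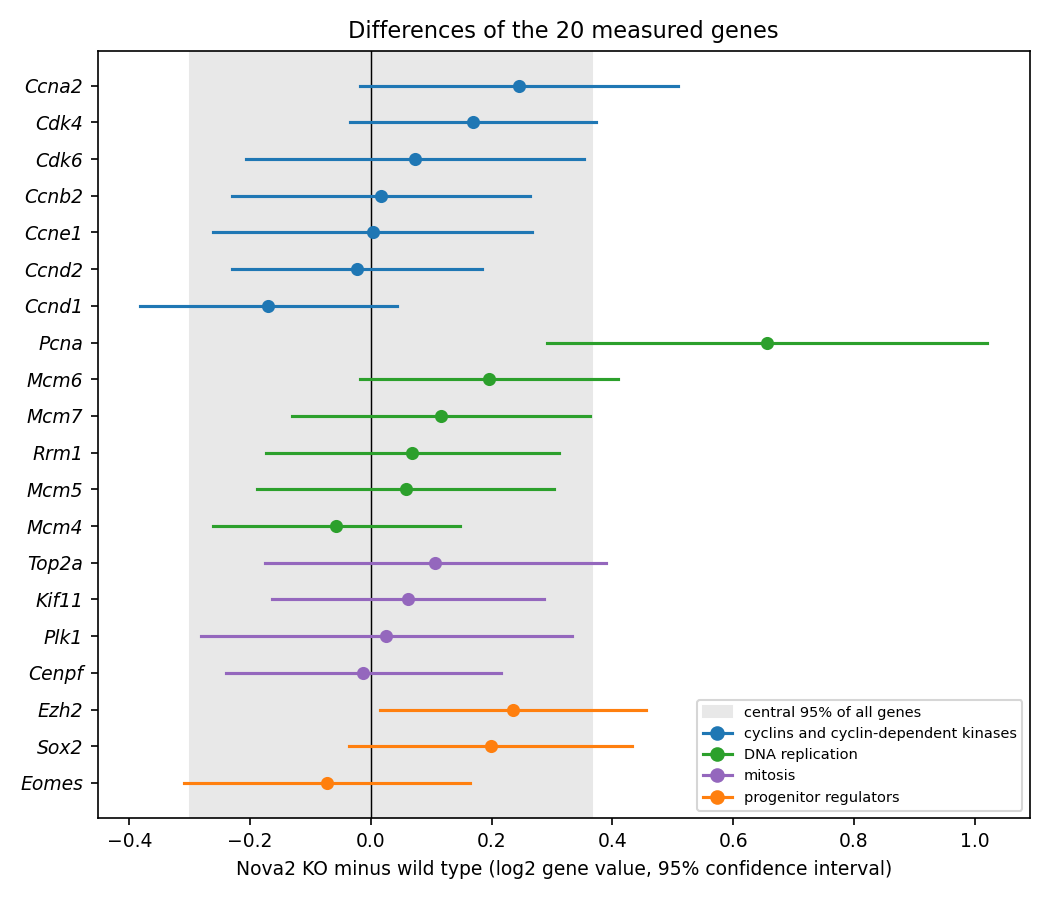
Difference between Nova2 KO and wild type in gene value (log2, x axis) for each of the 20 measured genes (y axis), grouped by role, with the 95% confidence interval from limma (n = 4 arrays per group) and the central 95% of all 11992 genes in grey. Pcna stands at 0.66 log2, outside the grey band, and the other 19 genes lie inside it.

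Probes of different genes bind with different strength, so that gene values do not rank transcripts against each other. With that limit, the highest gene value was that of Cdk4 (10.58 log2 over the 8 arrays) and the lowest that of Eomes (6.72 log2). As a yardstick for dim signal served 39 olfactory and vomeronasal receptor genes, which cortex is not known to use. With all probe sets counted, 16 of the 20 genes lay above the 95th percentile of those receptor genes (6.86 log2). Of all genes outside the yardstick, 81.6% did so. Top2a, Kif11, Cenpf and Eomes lay at or below it, so that their signal was not told apart from that of unused genes by this measure. Each of them still lay above 89.7% of the receptor genes, whose median was 5.09 log2. Of the 4 mitosis genes measured, Plk1 alone lay above the 95th percentile. For Top2a, Kif11, Cenpf and Eomes the confidence intervals therefore bound the array signal and not the amount of transcript.

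**Figure D2:**
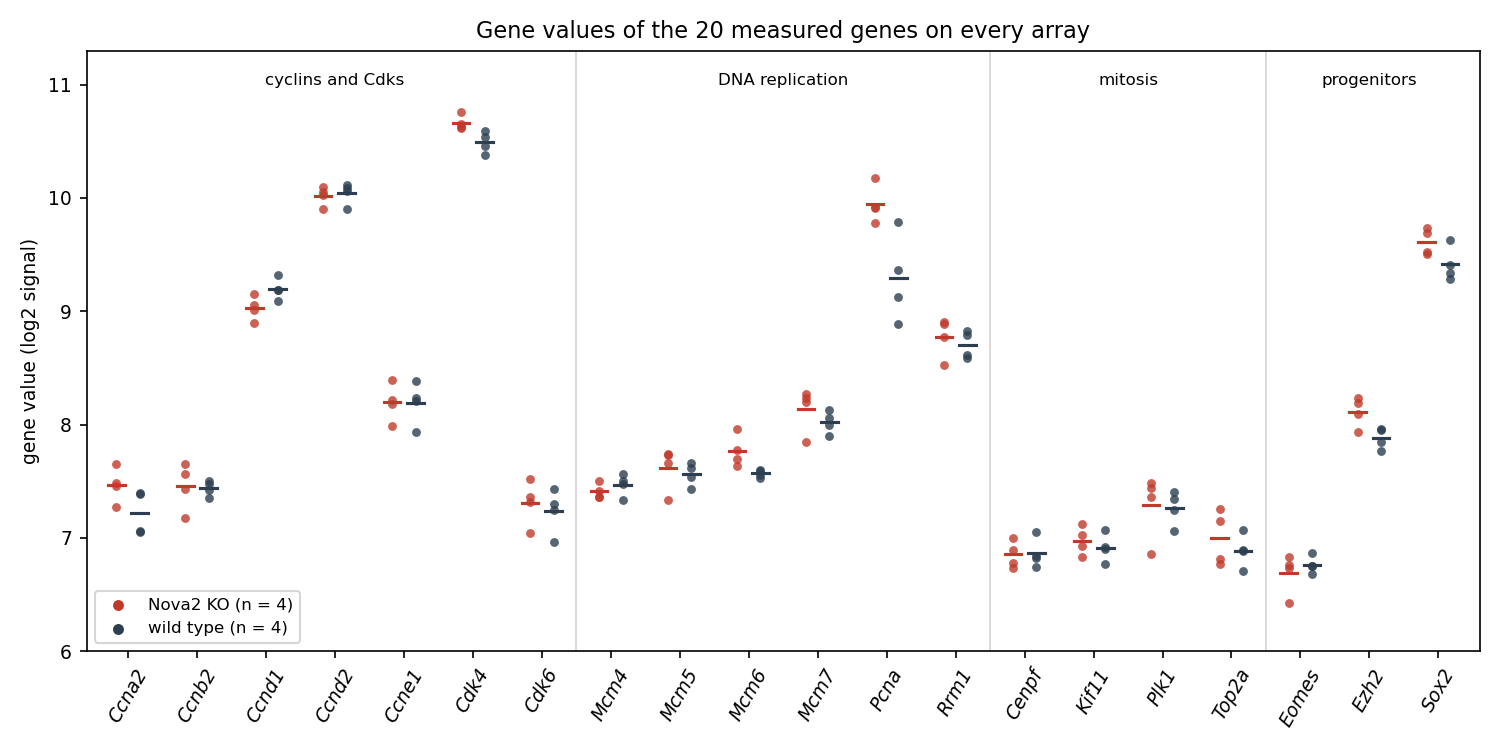
Gene value (log2 signal, y axis) of the 20 measured genes (x axis) on every array, with Nova2 KO in red and wild type in dark blue; points are single mice and bars are group means (n = 4 each). The groups are separate for Cdk4 and Mcm6 and overlap for the other 18 genes, with the widest spread among the wild type points of Pcna.

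Transcription of cell cycle genes is timed in part by short promoter sequences. E2F factors bind upstream of many S phase genes, while the CHR element, usually near CCAAT boxes bound by the factor NF-Y, times many genes of mitosis. The promoters of a pair of replication genes and of a mitotic cyclin are shown because they carry these elements in different combinations. Each is 300 bases of RefSeq sequence on build GRCm38.p6, 250 before and 50 after the start of the gene, written 5′ to 3′ on the strand of the gene. Capitals mark the letters searched for on both strands, which were TTTGGCGC and TTTCGCGC for E2F, TTTGAA for the CHR and CCAAT.
Pcna (chr2:132253131-132253430, minus strand): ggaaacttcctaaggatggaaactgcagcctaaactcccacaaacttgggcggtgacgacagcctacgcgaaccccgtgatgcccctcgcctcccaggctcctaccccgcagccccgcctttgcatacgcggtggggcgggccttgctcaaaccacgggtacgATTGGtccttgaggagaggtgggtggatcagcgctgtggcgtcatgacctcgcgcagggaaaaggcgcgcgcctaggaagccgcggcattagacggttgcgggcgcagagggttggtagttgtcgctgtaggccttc
Mcm6 (chr1:128359656-128359955, minus strand): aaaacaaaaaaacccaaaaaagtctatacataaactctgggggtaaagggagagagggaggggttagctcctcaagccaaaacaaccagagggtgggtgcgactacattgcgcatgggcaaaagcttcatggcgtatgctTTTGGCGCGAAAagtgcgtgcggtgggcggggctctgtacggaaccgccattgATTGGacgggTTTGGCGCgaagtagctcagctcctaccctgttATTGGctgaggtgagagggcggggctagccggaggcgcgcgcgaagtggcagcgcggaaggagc
Ccnb2 (chr9:70421505-70421804, minus strand): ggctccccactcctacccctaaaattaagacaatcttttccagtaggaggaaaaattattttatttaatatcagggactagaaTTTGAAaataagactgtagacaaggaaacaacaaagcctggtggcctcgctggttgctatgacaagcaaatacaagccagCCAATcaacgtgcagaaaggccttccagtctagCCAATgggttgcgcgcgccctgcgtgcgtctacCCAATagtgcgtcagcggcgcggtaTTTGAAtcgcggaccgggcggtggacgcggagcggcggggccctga

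The Mcm6 promoter held TTTGGCGC with its first base at positions -110 and -47 from the start, and TTTCGCGC on the other strand at -106, overlapping the first of these, with CCAAT on the other strand at -57 and -14. The Ccnb2 promoter held the CHR at -167 and 5, with CCAAT at -87, -54 and -21. The Pcna promoter held CCAAT on the other strand at -87 and none of the other letters. Of the 35 genes, 30 had a promoter in the table, and 16 of these belong to genes measured here. The shares of tested genes below are thus set against some promoters of genes that were not tested, Cdk1 and Mcm3 among them. An E2F sequence of either spelling was in 6 of these 30 (20%: Cdk1, Ezh2, Mcm3, Mcm5, Mcm6 and Mcm7), against 0.833% of 27025 promoters in the table and 1.43% of the 9581 that belong to genes tested here. The CHR was in 11 of 30 (36.7%), against 18.1% and 10.8%, and CCAAT in 25 of 30 (83.3%), against 37.9% and 37.8%. A match of letters is a description of the sequence, not of a bound site.

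Among the replication genes, Pcna had the largest difference of the 20 genes. It encodes the sliding clamp that holds DNA polymerases on the template during replication and repair. Pcna had gene values of 9.92, 9.78, 10.17 and 9.91 log2 in Nova2 KO mice 1 to 4, against 9.37, 9.13, 8.89 and 9.79 log2 in wild type mice 1 to 4. Nova2 KO mice 1, 3 and 4 lay above every wild type mouse, and Nova2 KO mouse 2 lay just below wild type mouse 4. The difference was 0.66 log2 (1.58-fold, SE 0.17, n = 4 per group, 95% confidence interval 0.29 to 1.02), with a limma adjusted p of 0.205. By p it ranked 113 among 11992 genes.

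One wild type array decided the call for Pcna. Without wild type 4, one of the arrays with the highest shares of floor values, the difference was 0.82 log2 and limma gave an adjusted p of 0.035, the only call for any of the 20 genes in 17 other settings. Over those 17 settings its adjusted p ran from 0.035 to 0.488, and without both arrays numbered 4 it was 0.0831. The difference was positive in all 17.

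The probe sets of Pcna moved the same way but by unequal amounts. All 13 kept probe sets had a higher mean in Nova2 KO, by 0.18 to 0.64 log2 with a median of 0.39 log2, and 7 had an unadjusted p under 0.05 in limma. The gene value of Pcna, as a median taken on each array, differed by more than any of its 13 probe sets. Probe set 4538353, which had the largest difference of the 13 (0.64 log2), was the median on 3 of 4 Nova2 KO arrays and on 4 of 4 wild type arrays. With the mean over probe sets in place of the median, the difference was 0.39 log2 (SE 0.096, limma adjusted p = 0.154). The brightest probe set, 4466505, averaged 12.15 ± 0.13 log2 in Nova2 KO and 11.97 ± 0.11 log2 in wild type (SD, n = 4 each). The gene table lists the pseudogenes Pcna-ps1 and Pcna-ps2, and for the measured gene Ccnb2 the pseudogene Ccnb2-ps. Whether the probe sets of Pcna or Ccnb2 also bind pseudogene transcripts was not tested.

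**Figure D3:**
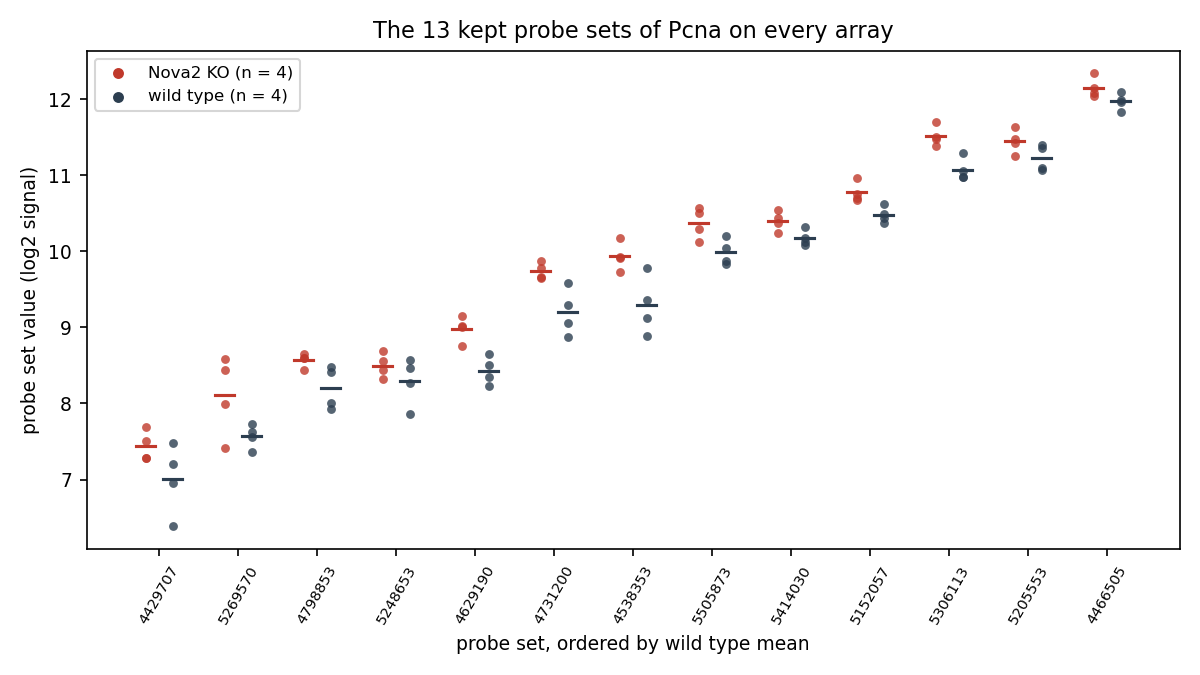
Signal (log2, y axis) of the 13 kept probe sets of Pcna (x axis, ordered by wild type mean) on every array, with Nova2 KO in red and wild type in dark blue (points are mice, bars are means, n = 4 each). The Nova2 KO mean lies above the wild type mean at all 13, by 0.18 to 0.64 log2.

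The other replication genes measured were 4 subunits of the MCM helicase, which unwinds DNA at origins, and Rrm1, the large subunit of ribonucleotide reductase, which supplies deoxynucleotides. Mcm6 had gene values of 7.78, 7.96, 7.70 and 7.63 log2 in Nova2 KO mice 1 to 4, against 7.59, 7.53, 7.60 and 7.56 log2 in wild type mice 1 to 4. All 4 Nova2 KO mice lay above all 4 wild type mice, by a small margin. The difference for Mcm6 was 0.20 log2 (SE 0.099, limma adjusted p = 0.466), and without the filter on dim probe sets it was 0.046 log2.

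Mcm7 had gene values of 8.20, 8.27, 7.85 and 8.23 log2 in Nova2 KO mice 1 to 4, against 8.13, 7.997, 8.06 and 7.90 log2 in wild type mice 1 to 4. Nova2 KO mouse 3 was the lowest of all 8 mice for Mcm7 and the other 3 Nova2 KO mice were the highest, so that the groups overlapped. The difference for Mcm7 was 0.12 log2 (SE 0.11, limma adjusted p = 0.733), and it was 0.071 log2 without Nova2 KO 2 and 0.21 log2 without Nova2 KO 3. Mcm5 (0.058 log2), Mcm4 (-0.057 log2) and Rrm1 (0.069 log2) differed by less than their SE of 0.094 to 0.113 log2, and each changed sign under at least 1 other setting. Mcm5 and Rrm1 also had their lowest value of the 8 mice in Nova2 KO mouse 3, where Pcna had its highest.

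Among the cyclins and kinases, 5 of 7 measured genes lay above 0 and 2 below, with a median of 0.017 log2, and none passed. Ccna2, the cyclin of S phase and early mitosis, had gene values of 7.27, 7.65, 7.49 and 7.46 log2 in Nova2 KO mice 1 to 4, against 7.39, 7.05, 7.06 and 7.39 log2 in wild type mice 1 to 4. For Ccna2, 3 Nova2 KO mice lay above all wild type mice and the remaining one fell within the wild type range. The difference for Ccna2 was 0.25 log2 (SE 0.12, limma adjusted p = 0.46), and it was 0.10 log2 with the mean over probe sets.

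Cdk4, a kinase that D-type cyclins activate in G1, had gene values of 10.62, 10.65, 10.62 and 10.76 log2 in Nova2 KO mice 1 to 4, against 10.46, 10.54, 10.38 and 10.59 log2 in wild type mice 1 to 4. The groups did not overlap for Cdk4, and the difference was 0.17 log2 (SE 0.094, limma adjusted p = 0.508). Cdk4 and Mcm6 were thus 2 of 20 genes whose groups were separate with Nova2 KO on top, against 5.06% of all genes tested. None of the 20 was separate with wild type on top, against 2.50% of all genes tested.

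Ccnd1, the D-type cyclin that partners Cdk4 and Cdk6, was the cyclin with the lowest difference. Ccnd1 had gene values of 8.90, 9.06, 9.15 and 9.01 log2 in Nova2 KO mice 1 to 4, against 9.19, 9.19, 9.09 and 9.32 log2 in wild type mice 1 to 4. For Ccnd1, 3 Nova2 KO mice lay below all wild type mice, and Nova2 KO mouse 3 lay within the wild type range. The difference for Ccnd1 was -0.17 log2 (SE 0.098, limma adjusted p = 0.528), and 6 of its 7 probe sets were lower in Nova2 KO. The gene value differed by more than any of these probe sets (lowest -0.13 log2), and with the 50th percentile filter it differed by -0.048 log2. Ccnd2, another D-type cyclin, differed by -0.023 log2 (SE 0.095) and Cdk6 by 0.073 log2 (SE 0.13). Ccne1, the cyclin of the G1 to S transition, differed by 0.0036 log2 (SE 0.12), and the mitotic cyclin Ccnb2 by 0.017 log2 (SE 0.11). The differences of Ccnd2, Cdk6, Ccne1 and Ccnb2 changed sign under at least 1 other setting.

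The 4 measured mitosis genes lay between -0.012 and 0.11 log2. Top2a, the topoisomerase that untangles replicated chromosomes, had gene values of 6.81, 7.26, 6.77 and 7.14 log2 in Nova2 KO mice 1 to 4, against 6.71, 6.89, 7.07 and 6.88 log2 in wild type mice 1 to 4. The groups overlapped for Top2a, and the difference was 0.11 log2 (SE 0.13, limma adjusted p = 0.796), with 0.020 log2 without Nova2 KO 2 and 0.18 log2 without Nova2 KO 3. Kif11, the motor that separates the spindle poles, differed by 0.062 log2 (SE 0.10), and the kinetochore protein gene Cenpf by -0.012 log2 (SE 0.10). Plk1, a kinase that drives mitotic entry and spindle assembly, differed by 0.026 log2 (SE 0.14). The signs for Kif11, Cenpf and Plk1 turned under at least 1 other setting.

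The progenitor regulators measured were Ezh2, Sox2 and Eomes. Ezh2, the methyltransferase of Polycomb complex PRC2, which methylates histone H3 on lysine 27, had gene values of 8.19, 7.94, 8.24 and 8.10 log2 in Nova2 KO mice 1 to 4, against 7.85, 7.77, 7.95 and 7.96 log2 in wild type mice 1 to 4. For Ezh2, 3 Nova2 KO mice lay above all wild type mice and Nova2 KO mouse 2 lay just below wild type mice 3 and 4. The difference for Ezh2 was 0.24 log2 (SE 0.10, limma adjusted p = 0.398), with 20 of 23 probe sets higher in Nova2 KO. Its adjusted p ran from 0.154 to 0.674 over the other 17 settings.

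Sox2, a transcription factor of neural stem cells that postnatal astrocytes also carry, had gene values of 9.50, 9.69, 9.74 and 9.53 log2 in Nova2 KO mice 1 to 4, against 9.29, 9.34, 9.41 and 9.63 log2 in wild type mice 1 to 4. Wild type mouse 4 lay among the Nova2 KO values for Sox2 and the other 3 wild type mice lay below them. The difference for Sox2 was 0.20 log2 (SE 0.11, limma adjusted p = 0.502).

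Eomes, the transcription factor of intermediate progenitors, had gene values of 6.76, 6.83, 6.74 and 6.42 log2 in Nova2 KO mice 1 to 4, against 6.75, 6.86, 6.75 and 6.68 log2 in wild type mice 1 to 4. Eomes was dim in both groups, Nova2 KO mouse 4 was the lowest of the 8 mice, and the difference was -0.072 log2 (SE 0.11, limma adjusted p = 0.841), which turned positive when 1 array was left out.

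Across the arrays the 20 genes did not rise and fall as one block. Nova2 KO mouse 2 had the highest of the 8 values for 7 genes (Ccna2, Ccnb2, Cdk6, Mcm6, Mcm7, Top2a and Plk1), and 17 of the 20 genes lay above their own mean there. Nova2 KO mouse 3 held the highest value for 4 genes and the lowest for 3. Nova2 KO mouse 4 held the highest for 3 and the lowest for 4, those 4 being Ccnb2, Plk1, Cenpf and Eomes. The median deviation of the 20 genes from their own means was 0.053, 0.14, 0.033 and -0.0086 log2 in Nova2 KO mice 1 to 4, against 0.026, -0.051, -0.032 and -0.037 log2 in wild type mice 1 to 4. The same median over all genes was 0.048, 0.019, 0.050 and -0.055 log2 in Nova2 KO mice 1 to 4, against 0.0068, 0.019, 0.031 and -0.097 log2 in wild type mice 1 to 4.

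**Figure D4:**
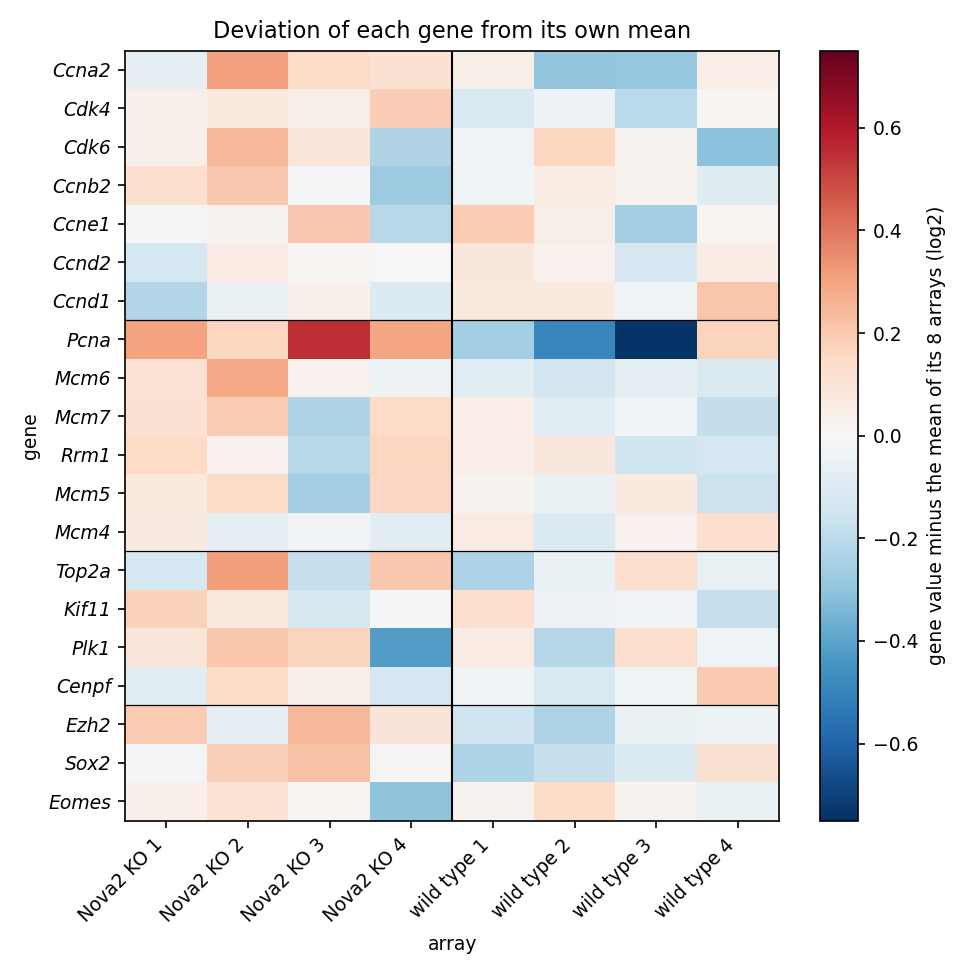
Gene value minus the mean of its 8 arrays (log2, colour) for the 20 measured genes (rows, grouped by role) on the Nova2 KO arrays (left) and the wild type arrays (right). Pcna spans the widest range, highest in Nova2 KO 3 and lowest in wild type 3, while Mcm5, Mcm7 and Rrm1 are lowest in Nova2 KO 3.

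Single probe sets were tested next, since an exon can change without its gene. None of the 345 probe sets of the 20 genes passed over all probe sets in limma, where 20 of 293697 passed (0.00681%). At an unadjusted p under 0.05 there were 23 (6.67%), against 6.68% of all probe sets. Of the 23, 21 were higher in Nova2 KO, 7 of them from Pcna and 5 from Ezh2. The split by direction over all probe sets is not given here. At the gene level 7.86% of all genes were higher and 3.72% lower at such a p in limma. Of all 345, 64.6% had a higher mean in Nova2 KO, against 51.1% of all probe sets. Probe sets of 1 gene share its RNA and are not independent.

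The probe set with the lowest p belonged to Mcm5. Probe set 4757773 of Mcm5 read 7.28, 7.26, 7.32 and 7.32 log2 in Nova2 KO mice 1 to 4, against 6.76, 6.58, 6.83 and 6.69 log2 in wild type mice 1 to 4. The groups were separate, and the difference was 0.58 log2 (SE 0.11, limma adjusted p = 0.369), while the gene value of Mcm5 differed by 0.058 log2. The second was probe set 4449079 of Plk1, with 7.45, 7.49, 7.61 and 7.37 log2 in Nova2 KO mice 1 to 4, against 8.10, 8.08, 7.92 and 8.09 log2 in wild type mice 1 to 4. It was lower in every Nova2 KO mouse, by 0.57 log2 in the mean (difference -0.57 log2, SE 0.12, limma adjusted p = 0.402). The next 3 belonged to Pcna, with differences of 0.55 log2 (4629190), 0.44 log2 (5306113) and 0.54 log2 (4731200).

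Exon usage was read as an index, obtained by subtracting the gene value from the log2 signal of the probe set on the same array. None of the 345 probe sets passed in limma, where 27 of 194707 passed (0.0139%), and 25 had an unadjusted p under 0.05 (7.25%, against 6.61% of all). By the Simes p, which combines the probe sets of a gene, none of the 20 genes passed, where 19 of 11187 passed (0.170%). At an unadjusted Simes p under 0.05 there were 3 of the 20, Plk1, Mcm6 and Mcm5, against 8.38% of all genes.

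The leading probe sets were those already met for Mcm5 (index difference 0.52 log2, SE 0.12) and Plk1 (-0.60 log2, SE 0.15), and probe set 5271411 of Mcm6 (-0.43 log2, SE 0.098), whose own signal differed by -0.23 log2 against a higher gene value. For Ccnd1 the index of probe set 4652674 differed by 0.31 log2 (SE 0.090, Simes adjusted p = 0.60). For Pcna the index of the brightest probe set, 4466505, differed by -0.48 log2 (SE 0.14, Simes adjusted p = 0.615), its own signal by 0.18 log2. The gene values of Pcna and Ccnd1 differed by more than any of their probe sets. That alone makes every Pcna index lower and every Ccnd1 index higher in Nova2 KO, so that these signs are not readings of exon usage. Which exons these probe sets cover was not analysed here.

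Other genes of the cell cycle were read from a wider list. Of 84 further listed genes 49 were measured and none passed over all genes in limma, while 8 had an unadjusted p under 0.05, all higher in Nova2 KO, or 16.3%. Over all genes tested, 11.6% had such a p, 7.86% higher and 3.72% lower in Nova2 KO. Of 13 measured genes of S phase and licensing, 10 were above 0, with a median of 0.073 log2. Prim1, the catalytic subunit of the primase that starts new DNA strands, was nearest to the threshold. It had gene values of 7.64, 7.41, 7.65 and 7.64 log2 in Nova2 KO mice 1 to 4, against 7.09, 7.08, 7.02 and 7.15 log2 in wild type mice 1 to 4. The groups were well apart for Prim1, with a difference of 0.50 log2 (1.42-fold, SE 0.096, limma adjusted p = 0.0715). Orc6, a subunit of the origin recognition complex, differed by 0.39 log2 (adjusted p = 0.301 in limma), Rfc3, a subunit of the clamp loader that places Pcna on DNA, by 0.33 log2 (adjusted p = 0.329 in limma), and Rpa2, which coats single-stranded DNA, by 0.27 log2 (adjusted p = 0.329 in limma).

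Of 18 measured further mitosis genes 13 were above 0, with a median of 0.10 log2. Mad2l1, a protein of the spindle checkpoint, had gene values of 8.47, 8.09, 8.48 and 8.50 log2 in Nova2 KO mice 1 to 4, against 7.86, 7.93, 8.03 and 7.91 log2 in wild type mice 1 to 4. All Nova2 KO mice lay above all wild type mice for Mad2l1, with a difference of 0.45 log2 (SE 0.11, limma adjusted p = 0.195). Cdca8, a subunit of the chromosomal passenger complex, differed by 0.29 log2, the kinesin gene Kif20b by 0.31 log2 and Foxm1, a transcription factor of G2 and mitosis genes, by 0.22 log2. Over their kept probe sets, Kif20b (6.32 log2) and Foxm1 (6.38 log2) lay below 6.86 log2. That is the 95th percentile of the receptor gene yardstick, which was taken with all probe sets. The remaining 18 measured genes, a mixed list of kinase inhibitors, pocket proteins, activating and repressive E2F factors, Ccnd3, Cdk5 and others, had a median of 0.034 log2, 10 above 0 and 8 below, and none had an unadjusted p under 0.05 in limma. Among them E2f5 (0.24 log2), Cdk5 (0.22 log2), a kinase of neurons outside the cycle, Rb1 (0.14 log2) and E2f4 (0.14 log2) had the lowest p.

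**Figure D5:**
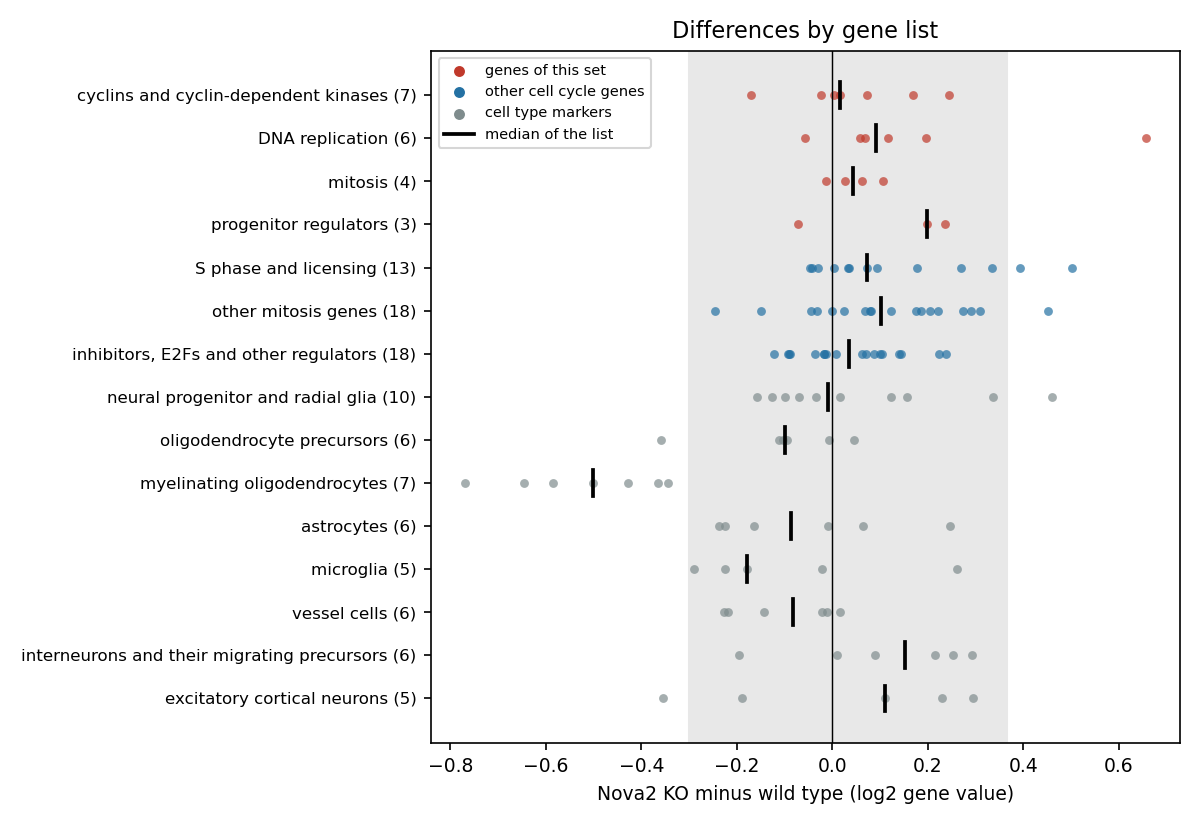
Difference between Nova2 KO and wild type in gene value (log2, x axis) for every measured gene of each list (y axis, number of genes in brackets), with the median of the list as a black bar and the central 95% of all genes in grey. The cell cycle lists lie close to 0, with medians of 0.017 to 0.10 log2 apart from the 3 progenitor regulators at 0.20 log2, and the myelin genes lie lowest at -0.50 log2.

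Markers of several cell types, dividing or not, are given beside these values. Of 10 measured progenitor and radial glia markers none passed, and the median was -0.0091 log2. Fabp7, a fatty acid binding protein of radial glia and young astrocytes, differed by 0.46 log2 (SE 0.16, limma adjusted p = 0.307) and Hes1, a Notch target, by 0.34 log2 (SE 0.14, limma adjusted p = 0.38). Sox3 differed by 0.16 log2 and Notch1 by -0.16 log2. The intermediate filament genes Nes (-0.034 log2) and Vim (-0.098 log2) were near 0. The mean level over the 10 ran from 8.59 to 8.75 log2 in Nova2 KO, against 8.54 to 8.64 log2 in wild type.

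Oligodendrocyte precursors are the main dividing cells of postnatal cortex. All 6 of their listed markers were measured, none passed, and their mean level ran from 8.74 to 8.90 log2 in Nova2 KO, against 8.78 to 8.996 log2 in wild type. Gpr17, of precursors about to differentiate, differed by -0.36 log2 (SE 0.15, limma adjusted p = 0.38) and Pdgfra, the growth factor receptor of dividing precursors, by -0.10 log2 (SE 0.10, limma adjusted p = 0.732). Olig1 (-0.11 log2), Cspg4 (-0.096 log2) and Olig2 (-0.0075 log2) also lay below 0, and Sox10 (0.046 log2) lay above it. The 7 measured myelin genes all lay below 0 with a median of -0.50 log2, and their mean level ran from 8.76 to 9.06 log2 in Nova2 KO, against 9.30 to 9.49 log2 in wild type. Of these 7, Mog fell past the threshold (-0.77 log2, SE 0.13, limma adjusted p = 0.0301), where 0.117% of all genes did so. All 7 had an unadjusted p under 0.05 in limma, against 3.72% of all genes for lower values. In 4 of the 7 every wild type mouse lay above every Nova2 KO mouse, against 2.50% of all genes. The part of these cells in the values of the cell cycle genes was not tested.

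Astrocyte markers had 4 of 6 genes below 0 (median -0.086 log2), microglial markers 4 of 5 (median -0.18 log2) and vessel cell markers 5 of 6 (median -0.082 log2), none past the threshold in limma and 2 of these 17 at an unadjusted p under 0.05, P2ry12 and Kdr. Markers of interneurons and their migrating precursors had 5 of 6 above 0, where 55.4% of all genes tested lay above 0. Dlx1, a homeobox gene of their birthplace, was at 0.29 log2 (SE 0.099, limma adjusted p = 0.284). Dlx5 was at 0.25 log2, Dlx2 at 0.22 log2, Sp8 at 0.089 log2 and Gad1 at 0.010 log2, while Gad2 lay below 0 at -0.20 log2. Ventricular and striatal markers had 2 of 4 measured genes each, and none of these 4 passed. Markers of excitatory cortical neurons were present at a mean level of 10.004 to 10.18 log2 in Nova2 KO, against 9.99 to 10.15 log2 in wild type. The 5 measured did not move one way: Camk2a differed by -0.35 log2 and Slc17a7 by -0.19 log2, while Neurod6 differed by 0.29 log2, Tbr1 by 0.23 log2 and Bcl11b by 0.11 log2. Camk2a and Neurod6 had an unadjusted p under 0.05 in limma, and none of the 5 passed.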

How the data were processed

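The deposited values, 1 per array for each of 391597 probe sets, are on a log2 scale and were made by the authors with PLIER, per the submitters' processing notes. Background correction, normalization between arrays, probe set selection and build are not given in the sources used here. Gene names came from the annotation of the array platform, by probe set: 228454 name 1 gene, 3443 several and 159700 none. Symbols were updated through the GRCm38.p6 gene table (10783 current, 2203 updated, 31 as given).

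Probe sets were kept if they averaged over 5.86 log2, the 25th percentile, on the 8 arrays (293697). Gene values were medians over kept probe sets of 1 gene, for genes with 3 or more. The exon usage index needed 5 or more, and 307 indices without variance were left out. All tests were lmFit and eBayes of limma 3.58.1 (R 4.3.3, data.table version 1.17.8), two-sided, over all features with Benjamini-Hochberg adjustment. The gene, probe set and index fits were also run on simulated data with independent noise, and the Simes p was not scored there. Plots used Python 3.11.15 and matplotlib 3.10.9. The number of arrays limits the precision. Each p-value sets a difference against the spread between the arrays of single mice within a group, moderated across features by eBayes. No array was a copy of another: Spearman correlations ran from 0.935 to 0.976.

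The genes, lists and settings were chosen with earlier results of these data known. Genes of this set given array by array were the 10 with the lowest p, which include those with the highest and lowest gene value. From the other lists only Prim1 and Mad2l1, each with the lowest p of its list, were given so. The further genes named from those lists were not chosen by a single rule. Other settings changed the filter, summary, normalization, offset, block or arrays.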

Additional observations from a re-analysis of the deposited data

How the results depend on the processing

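Over 17 other settings, the member values kept sign and side of the threshold in 310 of 340 comparisons, changed sign in 29 and passed the threshold in 1 (Pcna without wild type 4, 0.82 log2). In 9 of the 20 genes no setting turned the sign. Signs turned without the filter for Ccnb2 (-0.040 log2), Cdk6 (-0.0093 log2), Cenpf (0.15 log2) and Mcm4 (0.012 log2). They turned at the 50th percentile filter for Ccnb2 (-0.056 log2) and Kif11 (-0.098 log2), and with the mean over probe sets for Ccnb2 (-0.025 log2), Cenpf (0.069 log2) and Plk1 (-0.15 log2). Quantile normalization put Cenpf at 0.0014 log2. Leaving out both arrays numbered 4, a setting chosen after seeing the data, gave Cenpf 0.090, Mcm5 -0.028 and Rrm1 -0.0052 log2. Leaving out single arrays gave -0.049 to 0.11 log2 for Ccnb2, -0.070 to 0.016 for Ccnd2, -0.082 to 0.074 for Ccne1, -0.017 to 0.16 for Cdk6, -0.062 to 0.050 for Cenpf, -0.12 to 0.016 for Eomes and -0.041 to 0.17 for Plk1. The cause of these turns was not tested.

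The count past the threshold was 0 in all settings but 1, and ran from 0 to 1 without single arrays. The count at an unadjusted p under 0.05 was 2, against 1 with median centring, 1 with quantile normalization, 5 without both arrays numbered 4 and 1 to 4 without single arrays. The median difference of 0.065 log2 ran from 0.020 (without Nova2 KO 2) to 0.13 log2 (without Nova2 KO 3), and the count above 0, which was 15, from 12 (without Nova2 KO 2) to 17 (without Nova2 KO 4). No probe set and no exon usage value of these genes passed in any of the 15 other settings run for each. With replicate numbers, as titled, entered as a block, 0 of the 20 genes passed (Pcna adjusted p = 0.0789) and the count over all genes was 80, against 25 without it. That count was 13 with median centring, 11 without both arrays numbered 4, and 6 to 16 without single arrays. Deviations from the group means correlated at 0.131, 0.411, 0.0818 and 0.521 between same-numbered arrays 1 to 4. The labels do not say that numbers mark pairs. Number 3 missed the 0.1 asked of every pair in this check, so no pairing was taken. That does not show that the arrays were unpaired. Every array correlated best with its own number except wild type 3 (0.362 with Nova2 KO 2), a hint from the data and not from the design.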

Other observations

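Tyms, thymidylate synthase, makes the thymidine nucleotide for DNA, and its 3 probe sets also name the pseudogene Tyms-ps, so that it has no gene value. Probe set 5015068 read 8.53, 8.46, 9.43 and 9.65 log2 in Nova2 KO mice 1 to 4, against 8.61, 9.27, 9.27 and 9.40 log2 in wild type mice 1 to 4, and probe set 5211510 averaged 7.63 ± 0.18 log2 in Nova2 KO and 7.46 ± 0.25 log2 in wild type (SD, n = 4 each). Their differences of -0.12 log2 (SE 0.30) and 0.17 log2 (SE 0.16) did not pass in limma (adjusted p = 0.972 and 0.898). The remaining probe set, 5300209, was too dim to be kept.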
